A study of Mus musculus with 23 samples.

Results

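The T cell receptor beta chain (TRB) clonotypes described here carry a hydrophobic residue at both position 6 and position 7 of the third complementarity-determining region (CDR3), counting its first letter as 1. Entries that share V segment, J segment and CDR3 amino acids count as 1 clonotype, and hydrophobic means alanine, phenylalanine, isoleucine, leucine, methionine, valine, tryptophan or tyrosine. By this rule 1354 of 35389 TRB clonotypes without an unresolved residue (3.83%) were members, out of 64436 TRA and TRB clonotypes in the table. The rule uses the sequence alone and no measured value.

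The libraries come from a syngeneic mouse model of melanoma built on the cell line NIL, which carries Nras Q61R and was exposed to ultraviolet light to raise its mutational burden. All 23 libraries share that model. The groups were untreated (control), trametinib (which inhibits MEK), BGB-283 (which inhibits RAF family kinases) and both drugs together (combination). Each was sampled at D4 and D11. There were 3 libraries in each of the 8 groups except control D11, which had 2. Only receptor transcripts were read, so the labelled tissue could not be checked against marker genes. The labels give neither the event from which days are counted, nor mouse strain, sex or age, and they name the melanoma line as the tissue although T cell receptor RNA was read. The labels do not say whether a group's libraries are different mice. The p-values therefore reflect only the spread among the libraries at hand, which may be technical.

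The beta CDR3 is written at the joint of the V, D and J segments, so its ends are mostly germline and its middle is mostly made by the D segment and added nucleotides. Residues near the tip of this loop touch the peptide held by the major histocompatibility complex. Hydrophobic residues at positions 6 and 7 are known as a feature that raises the chance that a receptor binds self peptides, and the thymus acts on such receptors during development. The sequence feature is not a measurement of self-reactivity, and none was made here.

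The 10 members that reached 1% or more of the TRB counts of a library are shown first, because they are the members with the largest shares of counts. The capitals mark positions 6 and 7.
BGB-283 D11 replicate 3, TRBV16 with TRBJ1-4: cassfALnerlff
trametinib D11 replicate 1, TRBV16 with TRBJ2-5: casagALqdtqyf
BGB-283 D11 replicate 3, TRBV3 with TRBJ2-7: casssAAwgdeqyf
control D11 replicate 1, TRBV16 with TRBJ2-7: casslVAdyeqyf
combination D11 replicate 3, TRBV19 with TRBJ1-4: cassiVVsnerlff
BGB-283 D11 replicate 3, TRBV5 with TRBJ2-5: cassqVWggwdtqyf
combination D4 replicate 2, TRBV16 with TRBJ1-4: casseVFnerlff
trametinib D11 replicate 2, TRBV16 with TRBJ2-3: casslAVaetlyf
combination D11 replicate 1, TRBV13-2 with TRBJ2-4: casgdLLgasqntlyf
control D4 replicate 3, TRBV5 with TRBJ2-5: cassqVAgsdtqyf
The limit of 1% was chosen after the values were seen. Of these 10 clonotypes, 5 used TRBV16 and 6 had alanine as 1 of the 2 residues. Among all 1354 members, 262 used TRBV16. Alanine stood at position 6 in 452 of them and at position 7 in 257, with 74 that had it at both. V use among all 274 entries at 1% or more of a library, members or not, is not given here. These numbers therefore do not tell large members from other large clonotypes.

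The 5 members found in 4 libraries, the most for any member, are shown next because they recur across treatments.
TRBV5 with TRBJ2-1: cassqVLggpgyaeqff
TRBV16 with TRBJ1-4: casslAVsnerlff
TRBV16 with TRBJ2-5: casslALqdtqyf
TRBV5 with TRBJ2-4: cassqVLgentlyf
TRBV12-1 with TRBJ2-1: casspYWggyaeqff
TRBV16 appeared in 2 of these 5 and TRBV5 in 2, against 262 and 38 of all 1354 members. V use among the 88 other clonotypes found in 4 or more libraries is not given here.

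Members made up a small part of the clonotypes in every library. Over 23 libraries their share of TRB clonotypes was 3.74% ± 0.911 (SD), from 2.29% to 6.97% with a median of 3.68%. The number of members per library ran from 7 to 192, since the libraries held 214 to 5172 TRB clonotypes and 32534 to 320420 TRB counts. Exact 95% binomial (Clopper-Pearson) intervals on this share ran from 1.33% to 6.62% in control D4 replicate 1, with 7 members of 214 clonotypes, and from 3.21% to 4.26% in combination D4 replicate 2, with 192 of 5172. These intervals cover counting error only. Control libraries held the fewest clonotypes on average, and BGB-283 D11 replicate 1, with 10 members of 436, was also shallow.

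The 5 control libraries had 3.27%, 3.13% and 3.74% of clonotypes at D4 and 3.69% and 3.07% at D11. The trametinib libraries had 4.09%, 3.16% and 3.20% at D4 and 3.33%, 4.51% and 3.26% at D11. The BGB-283 libraries had 3.60%, 3.80% and 2.81% at D4 and 2.29%, 3.77% and 6.97% at D11. Both the lowest and the highest share of the series were thus BGB-283 libraries of the same day. The combination libraries had 3.63%, 3.71% and 3.68% at D4 and 4.34%, 3.90% and 5.03% at D11. All 3 combination D11 libraries lay above both control D11 libraries, whereas at D4 combination and control overlapped.

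The comparison of combination with control asked whether treatment with both drugs goes with a different share of hydrophobic pairs. The share of clonotypes was 4.05% ± 0.546 (SD, n = 6) in combination and 3.38% ± 0.315 (SD, n = 5) in control libraries. The difference was 0.671 percentage points, 0.298 at D4 and 1.04 at D11, and it did not pass after adjustment (p = 0.04, adjusted p = 0.24, exact two-sided permutation test within days, adjusted over 6 contrasts). The difference between the 2 days in this contrast did not pass either (0.747 points, adjusted p = 0.925, exact permutation test, adjusted over 5 contrasts).

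Each drug alone was compared with control to ask what it does without the other. Trametinib libraries had 3.59% ± 0.569 and BGB-283 libraries 3.87% ± 1.63 of clonotypes (SD, n = 6 each). Neither differed from control beyond the spread of the libraries: 0.213 points for trametinib (adjusted p = 0.795) and 0.493 points for BGB-283 (adjusted p = 0.795) in exact permutation tests. The BGB-283 difference turned to -0.163 points without BGB-283 D11 replicate 3.

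Combination was also set against the single drugs, for what adding the partner drug does. Its share of clonotypes was 0.458 points above trametinib (adjusted p = 0.443) and 0.178 points above BGB-283 (adjusted p = 0.795) in exact permutation tests. The latter turned to -0.334 points without BGB-283 D11 replicate 1 and became 0.834 without BGB-283 D11 replicate 3. D11 libraries had 0.478 points more than D4 libraries over the 4 treatments (adjusted p = 0.443, exact permutation test), and 0.150 without BGB-283 D11 replicate 3.

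Counts weigh each clonotype by its size, and here the libraries spread far more. Members took 3.54% ± 4.10 (SD, n = 23) of TRB counts, from 0.965% to 18.5% with a median of 2.39%. In bulk RNA a larger share of counts can come from more cells or from more RNA per cell, and these cannot be told apart.

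Control libraries gave 1.53%, 1.13% and 2.32% of counts at D4 and 4.60% and 1.41% at D11. Trametinib libraries gave 2.65%, 2.83% and 1.04% at D4 and 12.96%, 5.51% and 2.47% at D11. BGB-283 libraries gave 2.46%, 1.26% and 0.965% at D4 and 1.66%, 2.39% and 18.5% at D11. Within each day the ranges of the treatments overlapped, and 2 D11 libraries stood above 10%. All 3 trametinib D11 libraries lay above every control D4 and BGB-283 D4 library, which differ from them in both treatment and day. The nearest values there were 2.47% and 2.46%. Trametinib D11 overlapped trametinib D4, with up to 2.83%, and combination D4, with up to 3.87%. Combination libraries gave 1.47%, 3.87% and 2.23% at D4 and 3.31%, 1.34% and 3.58% at D11.

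**Figure D1:**
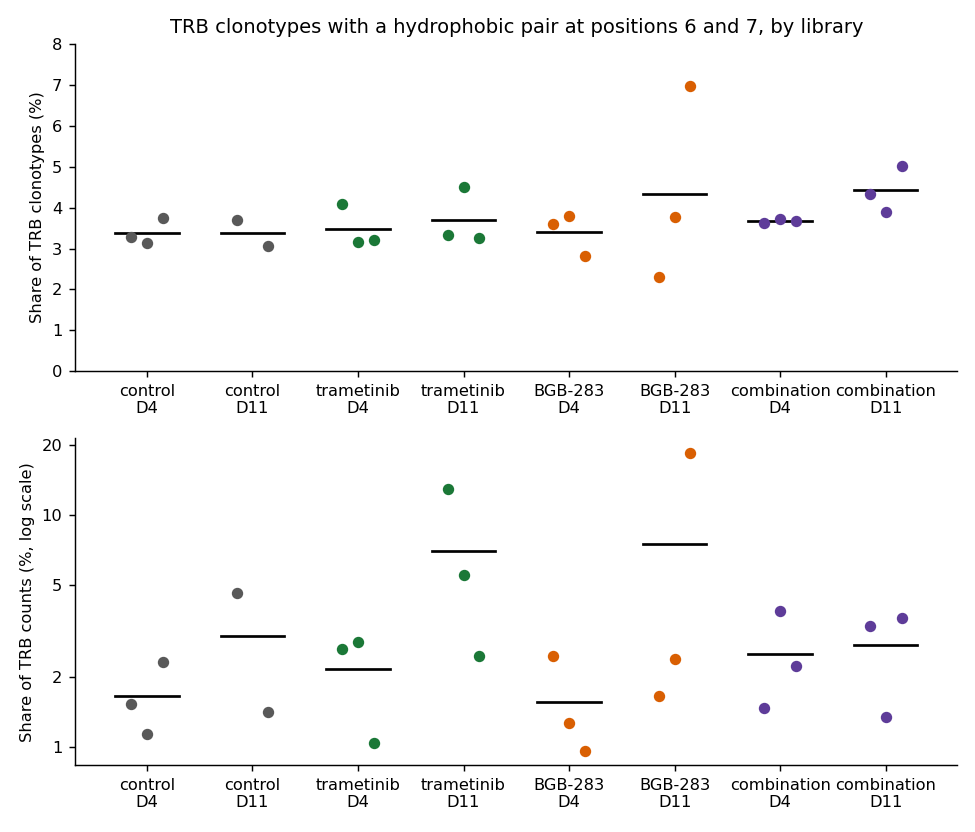
Share of TRB clonotypes (upper panel, linear axis) and of TRB counts (lower panel, log axis) with a hydrophobic residue at positions 6 and 7, in percent; each point is 1 of 23 libraries and each line the mean of its group. Shares of clonotypes lie between 2.29% and 6.97%, while shares of counts reach 12.96% and 18.5% in 1 trametinib and 1 BGB-283 library of D11.

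Control libraries averaged 2.20% ± 1.41 of counts (SD, n = 5). Trametinib averaged 4.57% ± 4.36, BGB-283 4.54% ± 6.86 and the combination 2.64% ± 1.10 (SD, n = 6 each). None of the 5 treatment contrasts passed in exact permutation tests. The differences from control were 0.303 points for combination (adjusted p = 0.9), 2.24 for trametinib (adjusted p = 0.67) and 2.21 for BGB-283 (adjusted p = 0.9, exact permutation tests). Combination stood at -1.94 points against trametinib (adjusted p = 0.67) and -1.90 against BGB-283 (adjusted p = 0.9, exact permutation tests). Single libraries set the direction of several of these values, since BGB-283 against control became -0.537 points and combination against BGB-283 became 0.840 points without BGB-283 D11 replicate 3. Trametinib against control became 0.747 without trametinib D11 replicate 1, and combination against trametinib became -0.444. Combination against control turned to -0.494 without control D11 replicate 2 and to -0.0340 without combination D4 replicate 2.

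The day contrast came nearest to the threshold in counts. Mean shares at D4 and D11 were 1.66% and 3.00% in control, 2.17% and 6.98% in trametinib, 1.56% and 7.51% in BGB-283, and 2.52% and 2.75% in combination libraries. The mean difference was 3.08 points (p = 0.0255, adjusted p = 0.153, exact permutation test within treatments, n = 11 and 12). It passed without control D11 replicate 2 (3.48 points, adjusted p = 0.0484) or without trametinib D11 replicate 3 (3.64 points, adjusted p = 0.0456, exact permutation tests), while other single omissions gave adjusted p-values up to 0.638. It fell to 0.959 points (adjusted p = 0.519, exact permutation test) without the 2 libraries above 10%. The tests of whether a treatment difference itself differed between days did not pass, with adjusted p-values of 0.925 for each of the 5 contrasts in clonotypes and from 0.694 to 0.765 in counts (exact permutation tests).

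The 2 libraries above 10% each held a member above 10% of TRB counts. In trametinib D11 replicate 1 the TRBV16 clonotype casagALqdtqyf was the largest TRB clonotype of the library, with 16739 counts and 10.9% of TRB counts. Without it the members of that library took 2.33%. It was also found in trametinib D11 replicate 2, at 54 counts and 0.0915%. In BGB-283 D11 replicate 3 the TRBV16 clonotype cassfALnerlff was the second largest, with 24333 counts and 11.5%. The same library held casssAAwgdeqyf at 4.62% and cassqVWggwdtqyf at 1.48%. It was the only library with more than 1 member at 1% or above, and without its largest member the others took 7.89%.

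In the other 21 libraries the largest member took from 0.0656% (cassfYWggayeqyf, TRBV14, trametinib D4 replicate 3) to 2.54% (casslVAdyeqyf, TRBV16, control D11 replicate 1) of TRB counts. Its rank among all clonotypes of the library had a median of 23 over the 23 libraries and ran from 1 to 126. Members of this size were thus spread over treatments, with at least 1 member at 1% or more in 8 of 23 libraries: 2 of 5 control libraries, 2 of 6 with trametinib, 1 of 6 with BGB-283 and 3 of 6 with the combination.

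Many members of BGB-283 D11 replicate 3 differed from a much larger member by a single residue. An entry was called a near neighbour where a clonotype with the same V, J and length, 1 residue away, had at least 20 times its counts in the same library. There were 36 such entries among the 74 members of that library (48.6%), against 15.99% of its other clonotypes. Of these 36, 20 lay next to cassfALnerlff, 7 next to casssAAwgdeqyf and 6 next to cassqVWggwdtqyf. The 20 entries summed to 312 counts with a highest value of 54, beside 24333 for the larger clonotype. Examples are rassfALnerlff at 54 counts and cassfALneglff at 28 counts. In the other libraries near neighbours were 0% to 15.4% of members, and over all 23 they were 6.88% ± 10.2 of members and 8.93% ± 4.38 of other clonotypes (SD).

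Leaving near neighbours out lowered the share of clonotypes in BGB-283 D11 replicate 3 from 6.97% to 4.38%, and the range over libraries became 2.53% to 5.13%. The mean was then 3.60% ± 0.316 for control (SD, n = 5). It was 3.66% ± 0.587 for trametinib, 3.56% ± 0.702 for BGB-283 and 4.16% ± 0.541 for the combination (SD, n = 6 each). The differences were 0.611 points for combination against control (adjusted p = 0.34), 0.109 for trametinib (adjusted p = 0.985) and 0.00494 for BGB-283 (adjusted p = 0.985, exact permutation tests). Combination against BGB-283 moved from 0.178 to 0.606 points (adjusted p = 0.34) and D11 against D4 from 0.478 to 0.0882 (adjusted p = 0.985, exact permutation tests). Whether these entries are sequencing or amplification variants of the large clonotypes was not tested.

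**Figure D2:**
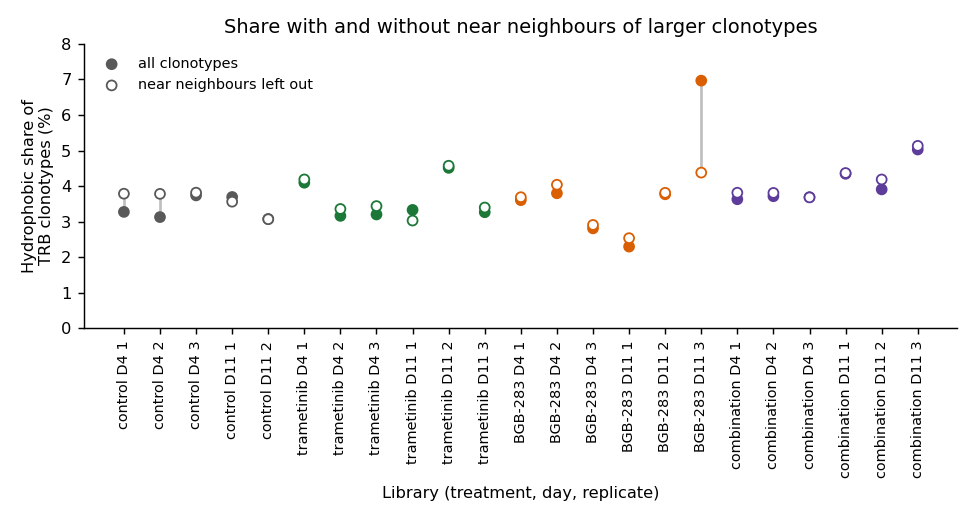
Share of TRB clonotypes with a hydrophobic pair in each of the 23 libraries, in percent, with all clonotypes (filled) and with near neighbours of a 20 times larger clonotype left out (open). BGB-283 D11 replicate 3 moves from 6.97% to 4.38%, and the other libraries move by less.

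Members were led by a few residue pairs. Of the 64 possible hydrophobic pairs 59 were seen. Alanine-leucine was the most frequent, with 148 members and 0.397% ± 0.454 of TRB clonotypes (SD, n = 23), followed by alanine-tryptophan with 130 (0.376% ± 0.284), tyrosine-tryptophan with 112 (0.315% ± 0.182) and valine-tryptophan with 112 (0.311% ± 0.191). Tryptophan-valine and alanine-alanine had 74 members each. These first 4 pairs were present in 20 to 22 of 23 libraries. The order rests in part on near neighbours: without them alanine-leucine had 115 members and 0.317% ± 0.179 of clonotypes and came after alanine-tryptophan with 124 (0.385% ± 0.309), tyrosine-tryptophan with 110 and valine-tryptophan with 106.

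At position 6 alanine led, in 452 of 1354 members, followed by valine in 249, tryptophan in 184, leucine in 179 and tyrosine in 171. At position 7 tryptophan led, in 438, followed by leucine in 297, alanine in 257 and valine in 164. Methionine was rare at both, in 9 and 8 members. Tryptophan at position 7 was followed by glycine at position 8 in 360 of 438 members (82.2%), as in casspYWggyaeqff and cassqVWggwdtqyf, and 424 of the 438 (96.8%) used a TRBJ2 segment. Among members with another residue at position 7, glycine followed in 29.7% and TRBJ2 was used in 78.2%. As background, a reading frame of the mouse Dbeta2 segment encodes a tryptophan followed by glycines, and Dbeta2 joins TRBJ2 segments only.

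Hydrophobic residues met less often than the single positions would give. Over libraries position 6 was hydrophobic in 20.5% ± 1.96 and position 7 in 22.3% ± 1.83 of clonotypes (SD, n = 23), whose product is 4.58% ± 0.604. The observed pair share was 0.813 ± 0.128 times that product and lay below it in 21 of 23 libraries, given as a description with no test.

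Along the loop, hydrophobic pairs were rarest at positions 3 and 4 (0.133% ± 0.117) and 4 and 5 (0.161% ± 0.125), near the V end. Positions 6 and 7 were compared only with 5 and 6, 7 and 8, and 8 and 9. The pairs at 9 and 10 (7.99% ± 1.41), 10 and 11 (11.7% ± 1.36) and 11 and 12 (20.4% ± 2.30) were not compared. Pairs at positions 5 and 6 were hydrophobic in 10.5% ± 1.26 of clonotypes (SD, n = 23). Positions 6 and 7 stood at -6.74 points against them, lower in 23 of 23 libraries (adjusted p = 3e-05, sign-flip permutation test over libraries with 100000 resamples). The unadjusted p of that test was 1e-05, the smallest these resamples can give. Pairs at 8 and 9 were hydrophobic in 5.16% ± 0.850, and positions 6 and 7 stood at -1.42 points against them (lower in 22 of 23 libraries, adjusted p = 3e-05, permutation test). Pairs at 7 and 8 took 3.64% ± 0.854, and the difference of 0.0983 points did not pass (adjusted p = 0.7, permutation test). With alanine and tyrosine left out of the hydrophobic set, positions 6 and 7 stood 0.722 points above 8 and 9 (adjusted p = 6e-05) and 0.257 points above 7 and 8 (adjusted p = 0.04, permutation tests), so the order of these positions depends on which residues are called hydrophobic.

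**Figure D3:**
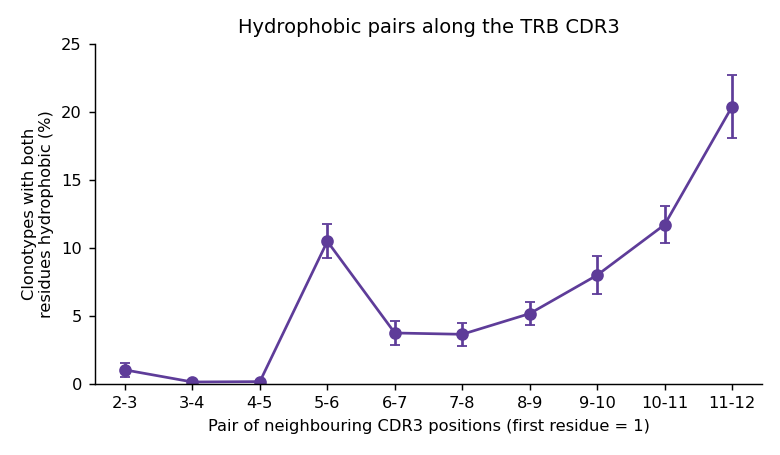
Share of TRB clonotypes in which both residues of a neighbouring pair are hydrophobic, in percent, against the pair of CDR3 positions; points are means over 23 libraries and bars are SD, among clonotypes long enough to hold the pair. The share falls from 10.5% at positions 5 and 6 to 3.74% at positions 6 and 7.

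V segments differed in how often their clonotypes were members. Of 24 TRBV segments, 17 had at least 20 clonotypes in at least 10 libraries and were compared with the rest of the same libraries. By a sign-flip permutation test with 100000 resamples, adjusted over the 17, 2 were higher (11.8% of those tested) and 5 lower (29.4%). TRBV12-2 was also higher without near neighbours (1.21 points, adjusted p = 0.0309) or without BGB-283 D11 replicate 3 (1.11 points, adjusted p = 0.0488), against 0.88 points (adjusted p = 0.153) with all libraries and entries (permutation tests). TRBV21, TRBV22, TRBV24, TRBV20, TRBV23, TRBV30 and TRBV31 were not tested.

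TRBV13-2 had the highest share, 6.76% ± 3.14 of its clonotypes (SD, 19 libraries), against 3.71% in the rest. It was higher in 16 of 19 libraries, by 3.05 points (adjusted p = 0.0013, permutation test). Position 6 was hydrophobic in 37.3% of TRBV13-2 clonotypes, the highest of the segments with 100 or more clonotypes, and alanine was its commonest residue there (19.7%), as in casgdAVdtevff. TRBV16, the segment with the most TRB clonotypes, had 5.38% ± 2.41 (SD, 23 libraries) against 3.44%, higher in 20 of 23 (1.95 points, adjusted p = 0.000935, permutation test). It supplied 21.9% ± 7.86 of the members of a library and 15.2% ± 2.31 of the other clonotypes. Its highest share, 13.2%, was in BGB-283 D11 replicate 3, with 27 of 204 clonotypes, and without near neighbours its mean was 4.97% ± 1.64. Both calls ended with alanine and tyrosine left out of the hydrophobic set (1.11 and 0.52 points, adjusted p = 0.0768 each, permutation test).

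Among the lower segments, TRBV29 had 2.21% ± 1.40 (SD, 22 libraries) and was lower than the rest in 21 of 22 (-1.79 points, adjusted p = 0.00017, permutation test). TRBV26 had 0.803% ± 1.40, TRBV15 1.68% ± 1.77 and TRBV2 1.47% ± 1.89, with differences of -3.16, -2.23 and -2.22 points from the rest (lower in 13 of 14, 16 of 18 and 14 of 15 libraries, adjusted p = 0.000935, 0.000935 and 0.0013, permutation tests). These means weigh every library alike and rest on few members. Counting each clonotype once over all libraries, members were 11 of 675 (1.63%), 25 of 1094 (2.29%) and 16 of 922 (1.74%). In combination libraries, which held the most clonotypes on average, the means were 1.87% ± 1.65, 3.19% ± 0.433 and 2.73% ± 2.08 (SD, n = 6 each). TRBV2 clonotypes had aspartate at position 6 in 46.6% and a hydrophobic residue there in 9.11%. TRBV1 had 2.64% ± 2.03 and a difference of -1.18 points (adjusted p = 0.0466, permutation test), a call that ended without any 1 of 13 of the 23 libraries and without near neighbours (-0.694 points, adjusted p = 0.309). With entries under 20 counts dropped, the calls on TRBV1 and TRBV2 ended and TRBV26 had too few clonotypes to be tested. With alanine and tyrosine left out of the hydrophobic set, the calls on TRBV1, TRBV2 and TRBV29 ended (-0.03, -0.57 and -0.46 points). With a minimum of 10 clonotypes per library the calls on TRBV1 and TRBV15 ended (adjusted p = 0.0608 and 0.109, permutation test).

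Within TRBV13-2 the mean share was 3.35% ± 0.316 in control (SD, n = 2 libraries with 20 or more of its clonotypes), 6.03% ± 2.19 in trametinib (n = 6), 6.76% ± 2.78 in BGB-283 (n = 5) and 8.62% ± 3.87 in combination libraries (n = 6). The control value rests on 2 members among 60 clonotypes, and no test of treatment was made within segments. Within TRBV16 the shares were 4.90% ± 2.87 (n = 5), 5.75% ± 0.9498, 5.55% ± 3.86 and 5.25% ± 1.64 (n = 6 each) in the same order. Within TRBV29 they were 1.62% ± 2.50 (n = 4), 2.38% ± 1.03, 2.20% ± 1.53 and 2.42% ± 0.830 (n = 6 each). The ranges of the treatments overlapped in TRBV16 and TRBV29. Of 12 segments with values in both groups, all combination libraries lay above all control libraries in 2, TRBV13-2 and TRBV15, all BGB-283 libraries did so in 1, TRBV13-2, and all trametinib libraries in 0. Both segments had only 2 control libraries.

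J segments differed as well. Of 12 TRBJ segments 2 were higher than the rest of their libraries (16.7% of those tested) and 6 were lower (50% of those tested) in the same permutation test. TRBJ2-1 stood highest, with 6.56% ± 2.40 of its clonotypes (SD, n = 23) against 3.28% in the rest, and was higher in 23 of 23 libraries (3.29 points, adjusted p = 6e-05, permutation test). TRBJ2-7 had 4.81% ± 2.09 against 3.48% (higher in 18 of 23, 1.33 points, adjusted p = 0.0205, permutation test). TRBJ2-2 was the 1 segment of its cluster that was lower, with 1.87% ± 1.79 against 3.98% (adjusted p = 8e-05, permutation test).

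The other 5 lower segments were all in the TRBJ1 cluster. TRBJ1-3 had 0.938% ± 1.30, TRBJ1-2 1.39% ± 1.59, TRBJ1-6 1.45% ± 1.74, TRBJ1-5 1.51% ± 1.55 and TRBJ1-1 1.63% ± 1.39 of clonotypes as members. The largest of their adjusted p-values was 0.000446 (permutation test). TRBJ2 segments took 86.4% ± 7.70 of the members of a library and 69.0% ± 1.69 of other clonotypes (SD, n = 23).

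TRBJ1-4 did not pass, and 1 library stood far above its median. Its share was 3.46% ± 6.02 (SD, 21 libraries) with a median of 1.95%, and it was lower than the rest in 18 of 21. In BGB-283 D11 replicate 3, where cassfALnerlff carries TRBJ1-4, it reached 26.6%, with 21 of 79 clonotypes. Without near neighbours the mean was 1.86% ± 1.38 and stood at -2.04 points against the rest, lower in 19 of 21 libraries, and 7 segments were then called lower in place of 6. It was also called lower without that library (-1.41 points, adjusted p = 0.0423, permutation test).

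**Figure D4:**
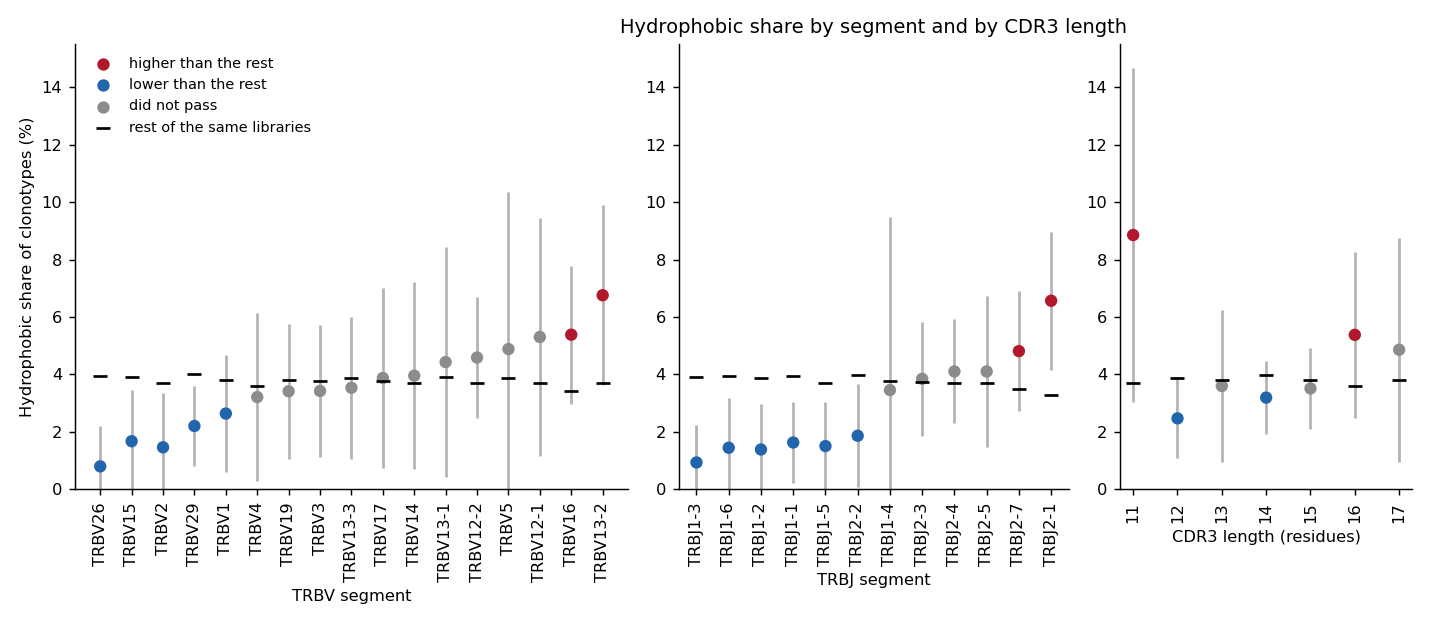
Share of clonotypes with a hydrophobic pair, in percent, for the 17 TRBV segments, 12 TRBJ segments and 7 CDR3 lengths tested; points are means over libraries, bars are SD drawn no lower than 0, and black dashes are the mean of the rest of the same libraries. TRBV13-2 (6.76%), TRBJ2-1 (6.56%) and length 11 (8.85%) have the highest means of their panels.

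CDR3 length bears on where positions 6 and 7 fall: in a loop of 12 residues they are the middle pair, and in a shorter loop they reach into the J segment. Mean lengths differed by less than the spread between libraries, 13.998 ± 0.352 residues for members and 13.965 ± 0.104 for others (SD, n = 23). The shares by length were not even. Of 7 lengths tested 2 were higher (28.6%) and 2 lower (28.6%). Length 11 had 8.85% ± 5.82 members (SD, 19 libraries) against 3.70% in the rest (higher in 15 of 19, adjusted p = 0.00206, permutation test), and length 16 had 5.38% ± 2.89 against 3.58% (higher in 18 of 22, adjusted p = 0.0177, permutation test). Length 12 had 2.47% ± 1.39 (adjusted p = 0.00206) and length 14 had 3.19% ± 1.28 (adjusted p = 0.0106, permutation tests), both lower. The call on length 14 ended with alanine and tyrosine left out of the hydrophobic set (-0.107 points, adjusted p = 0.734, permutation test). With a minimum of 10 clonotypes per library, length 10 was tested as well and was lower (-2.42 points, adjusted p = 0.0128, permutation test).

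In short members position 7 mostly lay within the J end. A J end was read from the residues that most clonotypes of a J segment share, such as yaeqff for TRBJ2-1. Among the 127 members of 11 residues or fewer, that end covered position 7 in 103 (81.1%), against 36 of 1227 longer members (2.93%). Other clonotypes of 11 residues or fewer were covered there in 977 of 1532 (63.8%). Of 104 members of 11 residues, 32 had tyrosine-alanine, and 32 of those 32 used TRBJ2-1. With alanine and tyrosine left out of the hydrophobic set, length 11 turned to -0.877 points against the rest (adjusted p = 0.0255, permutation test). TRBJ2-1 remained above the rest among loops of 12 residues or more, with 5.84% ± 2.20, by 2.67 points and in 21 of 23 libraries. Among those loops TRBJ2-7 had 4.30% ± 1.83 and stood 0.916 points above the rest, higher in 17 and lower in 6 libraries. Without near neighbours the TRBJ2-7 difference there was 0.765 points, higher in 15 and lower in 8 libraries. The differences among these loops were not tested. Over all lengths both higher TRBJ calls held with alanine and tyrosine left out.

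The question of clone size was whether members were more or less frequent among clonotypes with many counts. No difference beyond the spread between libraries was found. Among the 50 largest TRB clonotypes of a library 3.30% ± 2.53 were members, and among the rest 3.74% ± 0.929 (SD, n = 23). The difference was -0.438 points, higher in 11 and lower in 12 libraries (p = 0.397, sign-flip permutation test). It was -0.725 points with the 20 largest and 0.0587 with the 100 largest (p = 0.334 and 0.868, permutation tests).

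Size classes by share of counts gave similar values when entries were summed over libraries. Summed over libraries, members were 693 of 18371 entries (3.77%) under 0.01% of TRB counts, 610 of 15983 (3.82%) from 0.01% to 0.1%, 88 of 2568 (3.43%) from 0.1% to 1%, and 10 of 274 (3.65%) at 1% or more. An entry is a clonotype in 1 library, and entries of a library are not independent samples. Combination libraries held 13438 of the 18371 entries under 0.01%. Averaged over libraries, that class had 3.11% ± 1.97 members (SD, n = 23). Control libraries averaged 1.49% ± 2.07 there (SD, n = 5), with a member in 2 of 5. Trametinib averaged 3.35% ± 0.667, BGB-283 3.22% ± 2.96 and the combination 4.10% ± 0.779 (SD, n = 6 each). Summed over its libraries, control had 11 members of 347 entries there (3.17%) and the combination 508 of 13438 (3.78%). Trametinib had 81 of 2382 (3.40%) and BGB-283 93 of 2204 (4.22%). The lowest count was 3, so in a library with few counts this class spans fewer count values. In the class from 0.1% to 1% control libraries averaged 3.43% ± 1.13 (SD, n = 5), trametinib 2.92% ± 1.74, BGB-283 2.33% ± 1.27 and the combination 4.35% ± 1.83 (SD, n = 6 each). The median member had 23 counts in the median library, and so had the median of the other clonotypes.

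**Figure D5:**
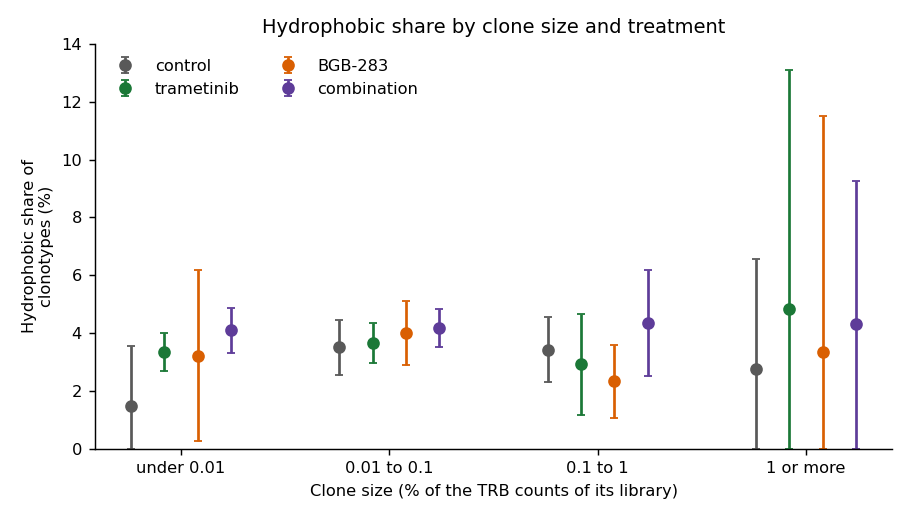
Share of clonotypes with a hydrophobic pair, in percent, by clone size (percent of the TRB counts of the library) and treatment; points are means over libraries with 5 or more clonotypes of that size and bars are SD, drawn no lower than 0. Bars are widest at 1% or more, where 10 of 274 entries are members.

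Members were found in more than 1 library less often than other clonotypes. In a library 5.48% ± 4.26 of its members were also found in another library, against 9.62% ± 2.04 of its other clonotypes (SD, n = 23). The difference was -4.13 points, negative in 18 and positive in 5 libraries (p = 0.00148, sign-flip permutation test). Libraries share these clonotypes, so the 23 differences are not fully independent. The test did not pass with entries under 20 counts dropped (-2.39 points, p = 0.103), and it passed without near neighbours (-3.96 points, p = 0.00452, permutation tests). In all, 32 members (2.36%) and 1319 other clonotypes (3.88%) were in 2 or more libraries, 5 (0.369%) and 88 (0.259%) in 4 or more, and 0 and 37 in 5 or more.

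The most shared members were not tied to 1 treatment. The TRBV5 clonotype cassqVLggpgyaeqff was listed in trametinib D11 replicate 1 (0.294% of TRB counts), BGB-283 D11 replicate 2 (0.905%), combination D4 replicate 1 (0.298%) and combination D4 replicate 3 (0.410%). It was the largest member of the last 3 of these libraries and was listed at 0 in the 5 control libraries. The TRBV5 clonotype cassqVLgentlyf was listed in control D4 replicate 3 (0.0959%), trametinib D11 replicates 2 and 3 (0.0339% and 0.0167%) and combination D4 replicate 3 (0.110%). The TRBV16 clonotype casslALqdtqyf was listed in control D11 replicate 2 (0.147%), combination D4 replicate 2 (0.251%) and combination D11 replicates 2 and 3 (0.0153% and 0.0339%). It differs at a few residues from the large casagALqdtqyf of trametinib D11 replicate 1, with which it shares V and J.

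The TRBV16 clonotype casslAVsnerlff was listed in trametinib D4 replicate 2 (0.662%), trametinib D11 replicates 2 and 3 (0.0237% and 0.0694%) and BGB-283 D4 replicate 2 (0.00224%). The TRBV12-1 clonotype casspYWggyaeqff was listed in BGB-283 D11 replicate 3 (0.0595%), combination D4 replicate 2 (0.0139%) and combination D11 replicates 1 and 3 (0.00859% and 0.0532%). The TRBV16 clonotype casslVWgasaetlyf, which had the highest summed share of the 5 members found in 3 libraries, was listed in trametinib D4 replicates 1 and 2 (0.127% and 0.00483%) and combination D4 replicate 3 (0.00175%). Counts of 1 or 2 do not occur in the table, and control libraries held the fewest clonotypes on average, so being listed at 0 there does not show absence.

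Every residue pair at positions 6 and 7 was also compared between treatments by the number of clonotypes that carried it. edgeR's quasi-likelihood test kept 42 of 381 pairs after its filter on low numbers. It called 0 of 42 pairs (0% in each of the 6 contrasts, Benjamini-Hochberg adjustment), with 2 to 6 pairs per contrast at an unadjusted p under 0.05. Only 1 hydrophobic pair, alanine-leucine, passed the filter. Control libraries had it in 0.204% ± 0.202 of clonotypes (SD, n = 5), trametinib in 0.381% ± 0.284, BGB-283 in 0.581% ± 0.839 and the combination in 0.390% ± 0.113 (SD, n = 6 each). Without near neighbours this pair had 115 members in place of 148, and edgeR was not run without them. In BGB-283 D11 replicate 3, 20 members were near neighbours of cassfALnerlff, which carries alanine-leucine. The values for alanine-leucine thus rest in part on near neighbours. The log2 difference of this pair from control was 0.85 (SE 0.905, adjusted p = 0.68) for combination, 0.57 (SE 1.03, adjusted p = 0.883) for trametinib and 1.35 (SE 0.927, adjusted p = 0.537) for BGB-283, by edgeR. Without the filter, 0 of 59 hydrophobic pairs passed in the 6 contrasts by edgeR, and 0 by DESeq2 with either size factor. On counts summed per pair, edgeR called 1 of 45 hydrophobic pairs tested, higher in combination than in BGB-283 libraries, where it called 8 of all 343 pairs tested, and 0 hydrophobic pairs in the other 5 contrasts.

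Other residue classes at the same positions give the setting for these values. At least 1 charged residue was present in 40.7% ± 3.12 of clonotypes (SD, n = 23), exactly 1 hydrophobic residue in 35.3% ± 1.99, at least 1 aromatic residue in 15.47% ± 1.56, proline at either position in 6.01% ± 1.15 and glycine at both in 5.07% ± 0.881. None of these classes passed in any of the 6 contrasts in exact permutation tests. The lowest adjusted p-value, 0.09, was that of glycine at both in combination against BGB-283 (4.84% ± 0.364 against 5.67% ± 0.455, exact permutation test, n = 6 each), which passed without combination D11 replicate 3 (-0.960 points, adjusted p = 0.03). Proline at either position in combination against trametinib passed without trametinib D4 replicate 2 (0.808 points, adjusted p = 0.03) and not with all libraries (0.598 points, adjusted p = 0.51, exact permutation tests).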

How the data were processed

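T cell receptor transcripts were amplified from total RNA with an immune repertoire RNA library kit, per the labels' protocols. The authors deposited a table of raw counts per clonotype and library, with V, J and CDR3. Which aligner, caller and filters were used is not given in the sources used here, and the submitters' processing notes name the build GRCh38, a human one, for these mouse samples. The lowest TRB count above 0 was 3. Values gather at multiples of 20, so counts may be reads and not molecules. Taking 20 counts as 1 molecule, which no source states, gave 1749 to 18368 estimated TRB molecules per library. TRB entries with an unresolved residue (182 of 35571, 8 of them hydrophobic at both positions) were left out.

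Shares per library were compared by exact two-sided permutation within days (or within treatments for D11 against D4), Benjamini-Hochberg adjusted over 6 contrasts at 0.05. The smallest p is 0.005 for a treatment against control, and 0.1 for 3 against 3 libraries within a day. Segments, lengths, clone size and sharing were compared within libraries by sign-flip permutation (100000 resamples), for features with at least 20 clonotypes in at least 10 libraries. Numbers of clonotypes per residue pair were tested with edgeR 4.0.16 (quasi-likelihood, filterByExpr, no TMM), with DESeq2 1.42.0 as an alternative. Named segments and lengths passed the threshold. Named pairs had the highest mean share. Named clonotypes were the largest of a library or 6 of those found in most libraries (5 in 4 libraries, and of 5 tied at 3 the one with the highest summed share), besides members at 1% or more. Members and lists were chosen with earlier results of these data known. Libraries were not paired by replicate number, because in 0 of 6 contrasts was every same-number correlation over 0.1. The permutation test within days or treatments and the sign-flip test were tried on simulated normal values, which shares from few members need not resemble. Numbers of libraries higher or lower are descriptions and were not tested. Length 13, for example, was lower in 17 of 23 libraries with a difference of -0.215 points (adjusted p = 0.712, sign-flip permutation test).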

Additional observations from a re-analysis of the deposited data

Results flagged for a closer look

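Of 28 checks for a library far from the others, 3 flagged one. Each check took 1 measure in the libraries of 1 treatment, with both days pooled, so the checks share libraries. Chance flags about 1 in 20 such checks where values are normally distributed, which was not tested here. BGB-283 D11 replicate 3 stood above the other 5 BGB-283 libraries in both measures, with 6.97% of TRB clonotypes and 18.5% of TRB counts carrying a hydrophobic pair. Without near neighbours of larger clonotypes its share of clonotypes was 4.38%. Trametinib D11 replicate 1 stood above the other 5 trametinib libraries with 12.96% of TRB counts, of which the clonotype casagALqdtqyf took 10.9%. The flag on this library only just passed its limit.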

How the results depend on the processing

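Depth limits the libraries with few members most, 7 to 26 in control and 10 in BGB-283 D11 replicate 1. Differences below are in percentage points. Residue set F, I, L, M, V, W (no alanine or tyrosine): the count differences of combination turned to 0.437 against trametinib and 0.520 against BGB-283. The same set left 0 TRBV segments higher and 2 lower, 1 length higher, a clone size difference of 0.0159, and 0.257 and 0.722 for positions 6 and 7 against 7 and 8 and against 8 and 9. Entries under 20 counts dropped: 2 TRBV segments were lower and sharing was -2.39. Combination against BGB-283 for an aromatic residue turned to -0.295, and trametinib against control turned to -0.344 for 1 hydrophobic residue and 0.0951 for proline. A minimum of 10 clonotypes per library left 3 TRBV segments lower, and the 100 largest clonotypes gave 0.0587. In clonotypes, combination against BGB-283 was -0.0105 at lengths 13 to 15, and trametinib against control was -0.00409 standardised to V use. Without the largest TRB clonotype of each library, combination against trametinib in counts was 0.0674. Without both libraries above 10%, an alternative chosen after seeing the data like that on near neighbours, BGB-283 against control was -0.163 in clonotypes and -0.537 in counts, and combination against BGB-283 was 0.840 in counts.

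With replicate number as a block, BGB-283 against control turned to -0.126 in clonotypes and -0.450 in counts. Among other classes the block turned D11 against D4 to -0.0248 (aromatic), combination against control to 0.356 (1 hydrophobic residue), and trametinib and BGB-283 against control to 0.272 and 0.409 (proline). The block called 1 residue pair for trametinib against control and changed no other call. Same-number correlations ran from -0.528 to 0.400.

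Residue pairs called were 18 and 10 by DESeq2 with its own size factors (combination and trametinib against control), and 1 without the filter (trametinib against control). On summed counts they were 3, 1, 1, 8 and 3 (combination, trametinib and BGB-283 against control, combination against BGB-283, D11 against D4). The cause of these changes was not tested.

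Leaving out each library in turn gave these ranges, in the order combination against control, trametinib against control, BGB-283 against control, combination against trametinib, combination against BGB-283 and D11 against D4. Shares of clonotypes gave 0.516 to 0.826, 0.00987 to 0.368, -0.163 to 1.01, 0.308 to 0.661, -0.334 to 0.834 and 0.15 to 0.734. Shares of counts gave -0.494 to 1.1, 0.747 to 3.37, -0.537 to 3.67, -3.07 to -0.444, -3.36 to 0.84 and 1.71 to 3.81. A charged residue gave -4.63 to -1.8, -3.54 to -0.706, -5.76 to -2.93, -1.82 to -0.386, 0.406 to 2.09 and -1.48 to -0.061. Glycine at both gave -0.0191 to 0.789, 0.343 to 1.15, 0.809 to 1.62, -0.618 to -0.0801, -0.985 to -0.706 and -0.743 to -0.339. An aromatic residue gave 1.11 to 2.71, 1.14 to 2.74, 0.582 to 2.18, -0.418 to 0.247, 0.144 to 0.951 and -0.184 to 0.615. Exactly 1 hydrophobic residue gave -0.900 to 0.0128, -0.193 to 0.989, -0.956 to 0.34, -1.53 to -0.193, -0.879 to 0.417 and -1.27 to -0.52. Proline gave -0.558 to 1.64, -1.16 to 1.04, -1.15 to 1.05, 0.384 to 0.808, 0.359 to 0.839 and -0.282 to 0.815. Residue pairs called were 0 to 1, 0 to 3, 0 to 0, 0 to 0, 0 to 0 and 0 to 0. Positions 6 and 7 minus 7 and 8 gave -0.047 to 0.222. The cause of these changes was not tested.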
